A study of Homo sapiens with 12 samples.

Results

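The cytosolic ribosomal protein genes encode the protein subunits of the ribosome that translates nuclear mRNAs. They were chosen by symbol (RPL or RPS with a number and at most one A, L or X, the stalk genes RPLP0 to RPLP2, and RPSA), and 57 of the 37471 genes analysed here matched, 32 of the large and 25 of the small subunit. RPSA had no match. Nearly all genes of chromosomes 3 to 9 are outside this set and not analysed here, and so are the family members that lie there. The values were FPKM, fragments scaled by transcript length and by the mapped fragments of the library, from polyA RNA of CAL62, an established cell line of anaplastic thyroid carcinoma. Of 2 isogenic derivatives, 1 carried a doxycycline-inducible mature hsa-miR-139-5p (miR-139 cells) and the other an inducible scrambled control (scrambled cells). The 4 groups, with 3 libraries each, were miR-139 cells given 1 µg/ml doxycycline for 96 h, miR-139 cells untreated, scrambled cells given the same doxycycline, and scrambled cells untreated. The labels give the untreated libraries a time of 0 h, so within a line doxycycline and 96 h of time cannot be told apart. The labels do not say whether each derivative is 1 clone.

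A ribosomal protein is made in step with the other subunits and with ribosomal RNA, is imported into the nucleolus and is assembled there, and most of its mRNAs share a leader that begins with an unbroken run of pyrimidines, the 5′ terminal oligopyrimidine (TOP) tract. Through this tract mTOR and the RNA-binding protein LARP1 control how much of the mRNA is translated, so mRNA levels and translation of these genes can differ, and translation was not measured here. Ribosomal proteins not bound in ribosomes also have other roles, best known for RPL5 and RPL11, which hold back MDM2, the inhibitor of p53.

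The start of the transcript is shown first because most of the family shares it. RefSeq (GRCh38.p14) had start sequences for 44 of the 57 members, and 33 of these (75.0%) had a run of at least 5 C or T letters that covered the first transcribed base, against 11.8% of 6451 tested genes with a sequence. The letters CTTTC, searched on the gene's strand from 10 bases before to 20 bases after the start and overlapping the run in many windows, were found in 22 of the 44 members and 5.53% of the 6451 genes. Where a gene had several starts, the longest run and a match at any start counted. The 9 windows of 30 bases below run 5′ to 3′ on the gene's strand, with the pyrimidine run in capitals and windows without such a run in lower case throughout. Shown are RPL41, RPS3 and RPL10 from the 5 most abundant members, 2 stalk proteins, the longest run found, and 3 members without a run to which the results return.
RPL41: cttcgCCTTTCTCTCggccttagcgccatt
RPS3: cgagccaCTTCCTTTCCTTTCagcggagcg
RPL10: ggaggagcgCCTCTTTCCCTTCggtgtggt
RPLP0: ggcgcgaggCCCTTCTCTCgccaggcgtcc
RPLP1: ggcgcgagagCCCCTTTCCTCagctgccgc
RPL39: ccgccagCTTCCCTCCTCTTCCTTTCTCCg
RPS26: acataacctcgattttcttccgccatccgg
RPS28: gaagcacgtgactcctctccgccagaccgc
RPS27L: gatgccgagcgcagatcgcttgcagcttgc
These windows lie at chr12:56116623-56116652 (RPL41, + strand), chr11:75399508-75399537 (RPS3, +), chrX:154398367-154398396 (RPL10, +), chr12:120201092-120201121 (RPLP0, −), chr15:69452808-69452837 (RPLP1, +), chrX:119791611-119791640 (RPL39, −), chr12:56041908-56041937 (RPS26, +), chr19:8321486-8321515 (RPS28, +) and chr15:63157458-63157487 (RPS27L, −). RPL39, a small protein of the wall of the peptide exit tunnel, had a run of 22 bases. A window without a run says only that the letters were not at the annotated start. Of the mitochondrial ribosomal protein genes, whose products make up the separate ribosome of mitochondria, 6.67% of 45 with a sequence had a run.

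The induced miRNA is shown because its seed decides which mRNAs it can pair with. It lies at chr11:72615102-72615124 on the − strand in RefSeq (GRCh38.p14), and bases 2 to 8, the seed, are in capitals.
hsa-miR-139-5p: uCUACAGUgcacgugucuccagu
The matching site, ACTGTAG, was searched in the annotated 3′ UTRs of GENCODE 29 on the mRNA strand and was present in 1 of 53 members (1.89%), RPS7, against 12.1% of 7608 tested genes. The median longest 3′ UTR was 493 bases in members and 1311 bases over the 7608 genes, so members also offered less sequence to search. RPS7, whose free protein is another of those known to bind MDM2, had 1679.5, 1406 and 1651 FPKM in the NE, C and TR libraries of the treated miR-139 cells, against 1534, 1267 and 1688 FPKM in the same line untreated. The groups overlapped, and its log2 difference was 0.08 (SE 0.19).

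Each column name held a tag, C, NE or TR, once per group, whose meaning the labels do not give. Tags are used here only as names, and 3 values in a row are in the order NE, C, TR throughout. Between 9518 and 9884 genes had at least 1 FPKM per library, and the relative depth, read from the steps between low values, ranged from 0.682 to 1.42 times the geometric mean of the libraries. HNRNPF, the gene named beside the miRNA in the title, was 113, 96.7 and 85.9 FPKM in the treated miR-139 libraries and between 184 and 265 FPKM in the other 9. Its log2 difference with doxycycline in miR-139 cells was −1.05 (SE 0.18), with a limma adjusted p of 0.337, and 3.61e-05 with the tag as a replicate block. The miRNA's own hairpin gene was listed at 0 in all 12. Of the thyroid markers, PAX8 (56.0 to 142 FPKM) and the keratins KRT8, KRT18 and KRT19 were present, while NKX2-1, TSHR and SLC5A5 were below 0.5 FPKM in all 12, as were the leukocyte markers PTPRC and LYZ. Among the 4 leukocyte markers listed, 1 had a mean of at least 1 FPKM, CD68, a lysosomal protein of macrophages, at 5.32 to 12.6 FPKM, and so had 1 of 3 endothelial, 1 of 3 fibroblast and 3 of 3 mesenchymal markers. The 4 NE libraries stood apart: mitochondrially encoded protein genes took 5.45% to 8.57% of summed FPKM in them and 10.7% to 12.3% in the 8 others, with a two-sided exact permutation p of 0.0123, the smallest that 81 placements of the tag allow. These placements do not allow for the choice of NE from the 3 tags. Every comparison between groups is balanced over the tags.

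Ribosomal protein genes were among the most abundant in these cells. Of the 57 members, 51 had a mean of at least 200 FPKM, 44 had at least 1000, and between 20 and 27 of each library's 50 highest genes were members. These 51 spanned a 14.9-fold range of mean FPKM, with a median of 1601, although their proteins are built into the ribosome in equal numbers, with only the stalk proteins RPLP1 and RPLP2 present in more than one copy.

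**Figure D1:**
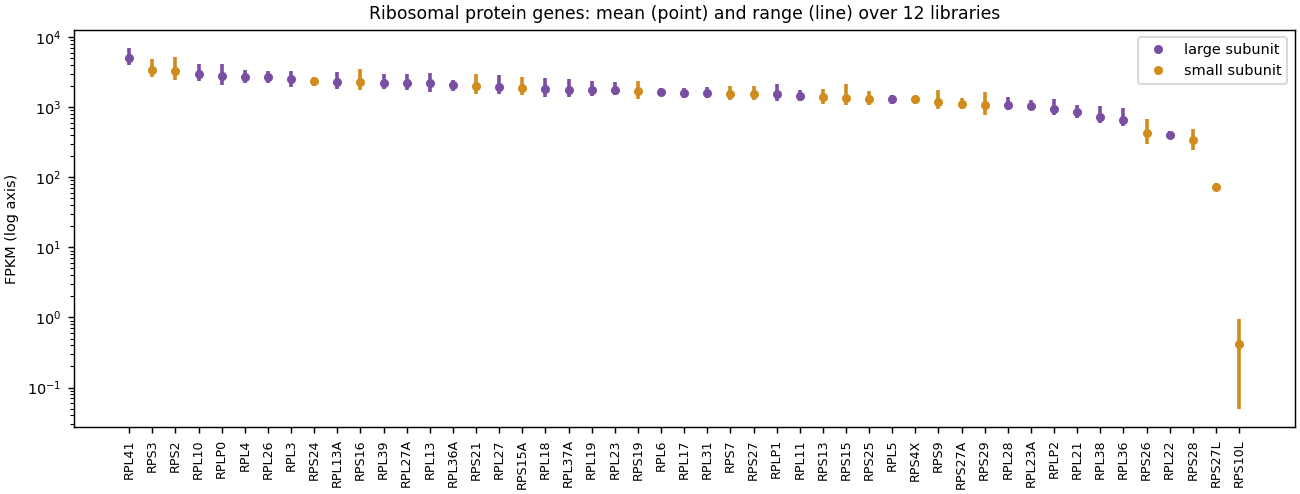
Mean FPKM of 49 members over the 12 libraries (points) with the lowest and highest library (lines), on a log axis, in order of the mean. RPL41 leads, 47 of them lie above 200 FPKM, and RPS27L and RPS10L fall off below 100. RPL3L and RPL10L, with means under 0.1 FPKM, are not drawn, nor are members not named here, and the line of RPS10L starts at 0.05 because its lowest libraries are at 0.

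RPL41, a very short basic protein of the large subunit, was the highest, with 5354, 4277 and 5389.7 FPKM in the treated and 4821, 4125 and 5433 FPKM in the untreated miR-139 cells. In scrambled cells it had 6928, 4592 and 4662 FPKM with doxycycline and 5926, 4710.0 and 4031 FPKM without. The NE library of the treated scrambled cells was the highest of the 12 and the TR library of the untreated scrambled cells the lowest.

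RPS3, which lines the mRNA entry channel and also acts in DNA repair, followed with 3711, 2942 and 3529.9 FPKM in the treated and 3303, 2718 and 3516 FPKM in the untreated miR-139 cells. Its values were 4937, 3247 and 3172 FPKM in the treated and 4144, 3358 and 2764 FPKM in the untreated scrambled cells. As for RPL41, the treated scrambled NE library was the highest, and treated and untreated libraries overlapped in both lines.

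RPS2, at the mRNA entry channel, had 3662, 2865 and 2995 FPKM in the treated and 3176, 2857 and 3047 FPKM in the untreated miR-139 cells. It had 5264, 3130.4 and 2900.2 FPKM in the treated and 4404, 3199.9 and 2472 FPKM in the untreated scrambled cells. In that line the 2 NE libraries lay far above the other 4, which were between 2472 and 3199.9 FPKM.

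RPL10, which joins the large subunit late in its maturation and is mutated in some T-cell leukaemias, had 3243, 2633 and 3032 FPKM in the treated and 2796, 2431 and 3045 FPKM in the untreated miR-139 cells. Its scrambled-line values were 4181, 2751 and 2693 FPKM with and 3494, 2956 and 2393 FPKM without doxycycline. RPLP0, the base of the stalk that recruits elongation factors, had 3041, 2302 and 2740.3 FPKM in the treated and 2633, 2279 and 2856 FPKM in the untreated miR-139 cells. The scrambled cells held 4136, 2564 and 2480.3 FPKM of RPLP0 with and 3436, 2595 and 2042 FPKM without doxycycline. Both genes repeated the order seen in RPL41, with the treated scrambled NE library highest and the untreated scrambled TR library lowest.

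The paralogs named with an L were far lower than the family. RPL10L, a testis paralog of RPL10, was listed at 0 in all 12 libraries, and RPL3L, a paralog of heart and skeletal muscle, did not exceed 0.123 FPKM. RPS10L reached at most 0.936 FPKM and was left out of the tests with these 2, so 54 members were tested. RPS27L, a paralog of RPS27 that p53 can induce, was expressed at 63.4 to 82.8 FPKM, against 1265 to 1985 FPKM for RPS27.

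Processed copies, intronless pseudogenes made from ribosomal protein mRNAs, can also take reads from their parents. Of 547 such copies in the table, 318 were listed at 0 in all libraries and 51 had a mean of at least 1 FPKM. The 10 copies with at least 100 FPKM were all named for ribosomal proteins outside the 57, 2 of them RPS3AP6 (1435 to 2239 FPKM) and RPL7AP6 (1394 to 2292 FPKM). The highest copies named for members were RPS2P46 (71.2 to 147 FPKM) and RPL26P30 (74.1 to 137 FPKM), low beside RPS2 and RPL26.

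The members together took 16.0%, 14.4% and 15.8% of summed FPKM in the treated miR-139 libraries, against 15.0%, 13.9% and 15.8% in the untreated ones. In scrambled cells they took 18.2%, 15.0% and 14.8% with doxycycline, against 16.5%, 15.4% and 13.5% without. The treated scrambled NE library was the highest of the 12, and treated and untreated libraries overlapped in both lines. With doxycycline the mean share was 15.4% ± 0.855 against 14.9% ± 0.945 untreated in miR-139 cells and 16.0% ± 1.90 against 15.1% ± 1.49 untreated in scrambled cells (SD, n = 3 each). The differences of 0.507 and 0.871 percentage points had two-sided exact permutation p-values of 0.6 and 0.7, in a design of 3 against 3 that cannot go below 0.1. A share of RNA cannot tell more mRNA of these genes from less of others, and in bulk samples fewer cells of a kind and less RNA per cell cannot be told apart.

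Between the lines the tags disagreed. The miR-139 cells minus scrambled cells, both treated, gave −2.17 percentage points in the NE, −0.617 in the C and 1.00 in the TR libraries. Untreated, the same difference was −1.47, −1.49 and 2.27. The means differed by −0.592 points treated and −0.229 points untreated, each with an exact permutation p of 0.8.

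**Figure D2:**
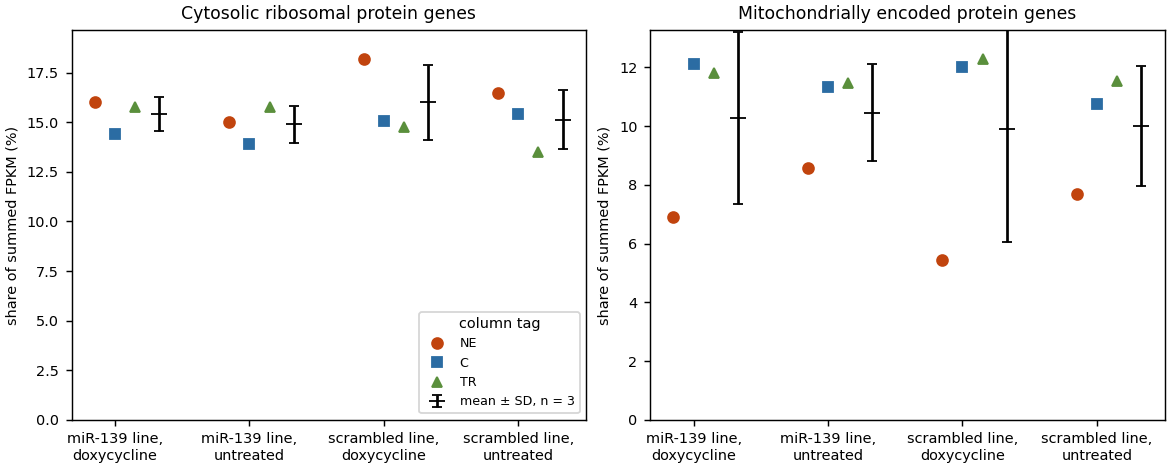
Share of summed FPKM in each library taken by the 57 cytosolic ribosomal protein genes (left) and the 13 mitochondrially encoded protein genes (right), by group and column tag, with mean ± SD (n = 3). Ribosomal protein shares lie between 13.5% and 18.2% and overlap between groups, while the mitochondrial share is below 9% in each NE library and above 10% in the others.

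Doxycycline in miR-139 cells, where it induces the miRNA, was compared as 96 h of treatment against 0 h untreated, and no member passed the test. The limma fit on log2(FPKM + 1) called 0 of 54 members at an adjusted p under 0.05, and 0 of the 9778 tested genes (0.0%). At an unadjusted p under 0.05 it counted 0 members and 0.736% of all genes. The median log2 difference of the members was 0.08, against 0.00 over all tested genes, and 50 of 54 were positive, against 51.2% of all. Within tags the members' median was 0.15 in NE, 0.10 in C and −0.01 in TR. In limma with a replicate block for the tag, the call reached 0 members and 0.0205% of all genes, and 1 member had an unadjusted p under 0.05, against 4.48% of all genes. The fit without the block did not call HNRNPF either, with a limma adjusted p of 0.337. The absence of a call there does not exclude a change.

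The lowest difference was that of RPS27L, with 64.6, 63.4 and 79.9 FPKM in the treated and 70.8, 64.2 and 82.8 FPKM in the untreated miR-139 cells and a log2 difference of −0.07 (SE 0.13). RPS27L was the only member lower in all 3 tags (14.5% of tested genes were), and treated and untreated libraries overlapped. Higher in all 3 tags were 20 of 54 members, against 16.3% of tested genes, among them RPS3, RPS19 and RPL11. RPS28, a neighbour of the mRNA exit channel, had the highest difference of the members named here, with 417, 289 and 395 FPKM treated and 277, 263 and 353 FPKM untreated and a log2 difference of 0.29 (SE 0.24). Its treated NE and TR values lay above the untreated range and its treated C value within it.

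In scrambled cells, where doxycycline induces the scrambled control, limma also called 0 of 54 members and 0.0% of the 9778 genes, with 0 members and 0.481% of all genes at an unadjusted p under 0.05. All 54 differences were positive, with a median of 0.14 against 0.02 over all genes, of which 57.8% were positive. The sign did not hold in every tag: 54 members were positive in NE (median 0.25), 16 in C (median −0.03) and 54 in TR (median 0.21). RPS24, a small subunit gene mutated in some cases of Diamond-Blackfan anaemia, had the highest difference of the members named here, with 2729.8, 2608 and 2398 FPKM treated and 2024, 2406 and 1993 FPKM untreated and a log2 difference of 0.27 (SE 0.16). The groups overlapped only because the untreated C value exceeded the treated TR value. RPS4X, encoded on the X chromosome, had the lowest difference, 0.06 (SE 0.15), with 1457, 1315 and 1252 FPKM treated and 1356, 1348 and 1149 FPKM untreated, which overlapped. Higher in all 3 tags were 16 of 54 members, against 20.2% of tested genes, and lower in all 3 were 0, against 12.6%.

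**Figure D3:**
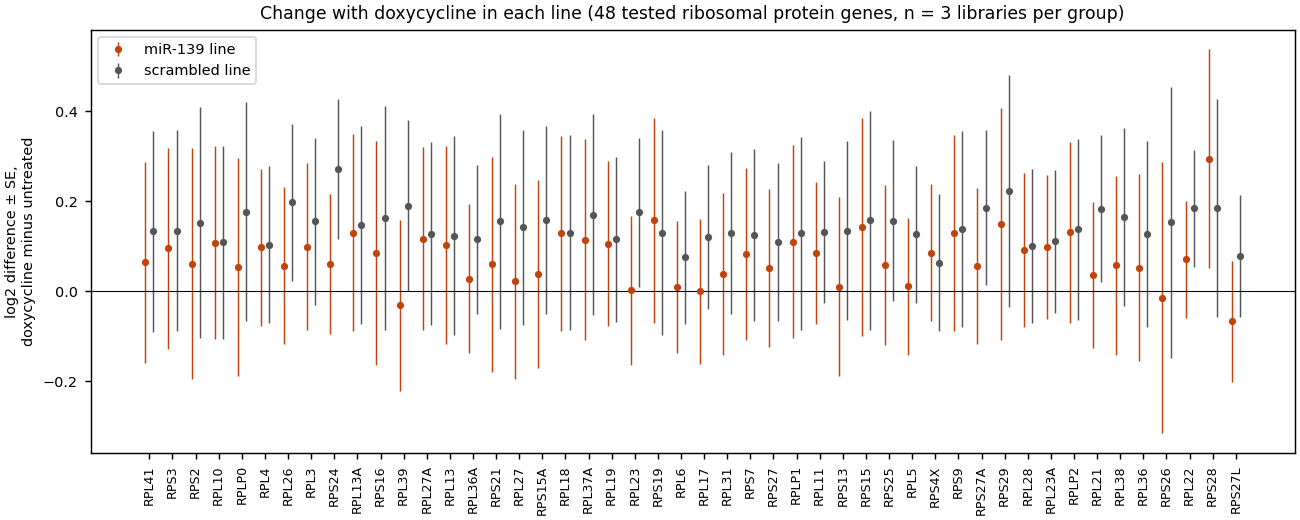
Log2 difference with doxycycline (treated minus untreated, log2(FPKM + 1), ± SE from limma) of 48 tested members in miR-139 cells and in scrambled cells, ordered by mean FPKM, n = 3 libraries per group. Nearly all points of both lines lie slightly above 0, most of them with errors that reach it, and RPS27L, at the low end of expression, is the lowest with doxycycline in miR-139 cells.

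The difference between these responses, the interaction, was called by limma for 0 of 54 members and 0.0% of all genes, with 0 members and 0.419% of all genes at an unadjusted p under 0.05. Its median was −0.06 for members and −0.02 for all genes, and 49 of 54 were negative (44.4% of all genes were positive). RPL39 was lowest at −0.22 (SE 0.27), from 2121, 1980.0 and 2382 FPKM treated and 2251, 1808 and 2624 FPKM untreated in miR-139 cells. In scrambled cells RPL39 had 2951, 2219 and 2167 FPKM treated and 2278, 2223 and 1888 FPKM untreated. Its highest library was the treated scrambled NE one (2951 FPKM), followed by the untreated miR-139 TR one (2624 FPKM).

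RPS27L differed in direction between the lines in every tag: lower with doxycycline in miR-139 cells and, with 73.9, 77.4 and 71.9 FPKM treated and 68.2, 74.2 and 68.8 FPKM untreated, higher in scrambled cells. Its interaction was −0.14 (SE 0.19) in the limma fit without the replicate block, whose spread includes that between tags. With the block, the smallest unadjusted p of any member in the interaction was 0.287 in limma. RPS27L was picked from 54 members for this pattern, and its share among all tested genes was not counted. Of all tested genes, 14.5% were lower in all 3 tags in miR-139 cells and 20.2% higher in all 3 in scrambled cells.

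Between the lines no member passed the test either. After doxycycline the miR-139 cells minus scrambled cells had a median of −0.09 for members and −0.01 for all genes, with 51 of 54 members negative (47.2% of all genes were positive). Untreated, the medians were −0.04 for members and 0.00 for all genes, with 36 members negative (49.7% of all genes were positive). Limma called 0 of 54 members and 0.0% of all genes in each. At an unadjusted p under 0.05 there were 0 members in each, against 1.07% of all genes treated and 0.593% untreated. The tags pointed in opposite directions. Treated, 54 of 54 members were negative in NE (median −0.37) and 51 of 54 positive in TR (median 0.17), and untreated, 53 of 54 were positive in TR (median 0.37), while the NE and C medians were −0.30 and −0.20. RPS28 was highest treated at 0.04 (SE 0.24), and RPS24 highest untreated at 0.12 (SE 0.16). With the replicate block for the tag, limma called 0 members in both comparisons (0.112% of all genes treated, 0.0% untreated), in the interaction (0.0102%) and for doxycycline in scrambled cells (0.0%). At an unadjusted p under 0.05 these fits had 0 members treated (7.18% of all genes), 1 untreated (4.45%), 0 in the interaction (3.44%) and 0 for doxycycline in scrambled cells (4.0%). The smallest adjusted p of a member in them was 0.837, in the treated comparison by limma.

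Larger differences lay between the tags. In the NE libraries, against the mean of C and TR with the group means as covariates, limma called 23 of 54 members higher (42.6%), against 28.0% of all 9778 genes, and 0 lower, against 24.0% of all. At an unadjusted p under 0.05 there were 28 members, against 58.0% of all genes. The median difference was 0.26 for members and 0.02 for all genes, and 49 of 54 were positive, against 52.1% of all. By subunit, 15 of 24 tested small subunit genes and 8 of 30 large subunit genes were called. The small subunit share of summed FPKM was 6.48% ± 0.598 in NE (SD, n = 4) and 5.61% ± 0.307 in C and TR (SD, n = 8), with an exact permutation p of 0.0247. The large subunit share was 9.94% ± 0.733 in NE and 9.22% ± 0.532 in C and TR, with an exact permutation p of 0.136. All members together took 16.4% ± 1.33 in NE and 14.8% ± 0.837 in C and TR, with an exact permutation p of 0.0617. The ratio of the large to the small subunit sum was at most 1.57 in the NE libraries and at least 1.62 in the others, without overlap. Mitochondrially encoded genes were lower in the same libraries, as given above, and FPKM shares are bound to a total. Scaled to genes neither mitochondrially encoded nor ribosomal, limma called 11 members higher and 6 lower, as given below. How far the mitochondrially encoded genes account for the NE differences was not tested.

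**Figure D4:**
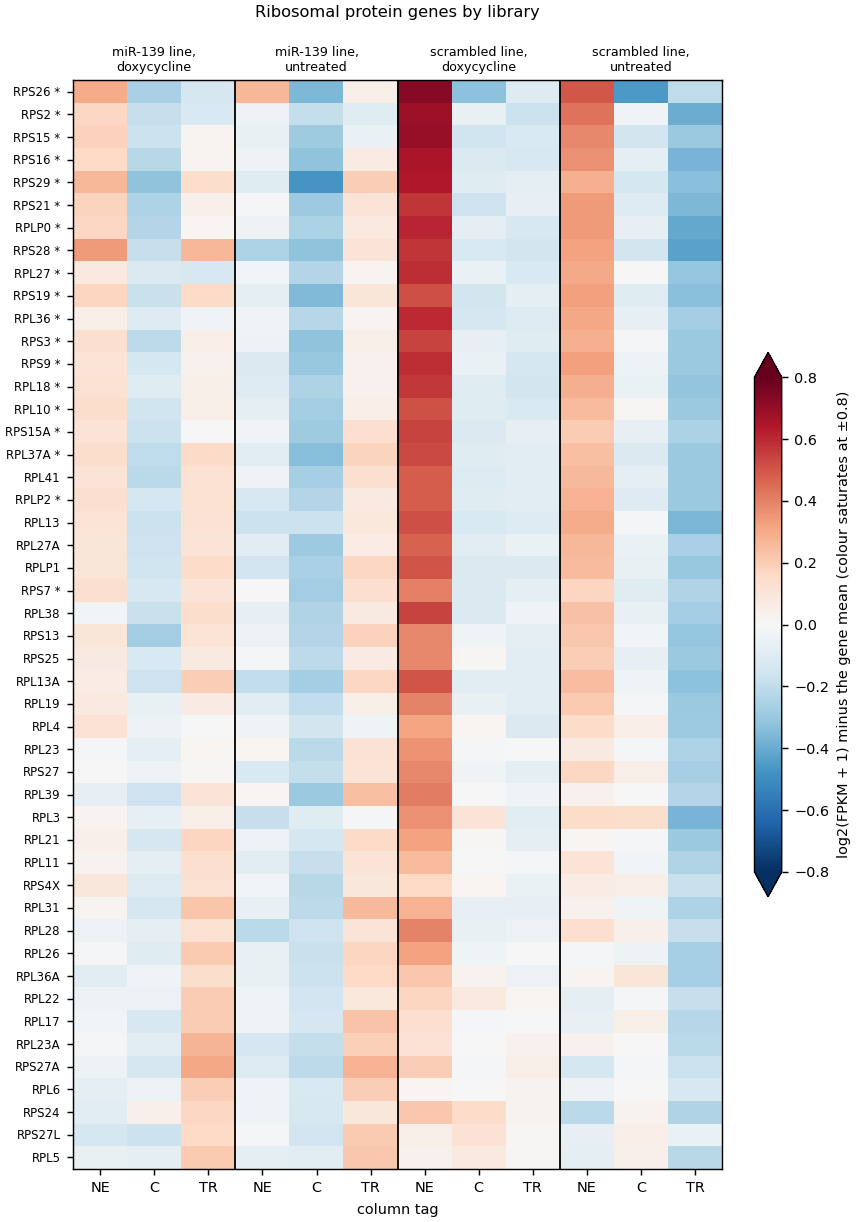
Deviation of log2(FPKM + 1) from the mean of each of 48 tested members over the 12 libraries, ordered by the difference of NE from C and TR, with * for the 19 of them called by limma. The treated scrambled NE library is the highest for most members, the TR library of the untreated scrambled cells is the lowest for most, and RPS26 is high in each of the 4 NE libraries.

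RPS26 differed most clearly. This protein sits at the mRNA exit channel, contacts the message upstream of the start codon, and is mutated in some cases of Diamond-Blackfan anaemia. In the order treated and untreated miR-139 cells, treated and untreated scrambled cells, its NE libraries held 507, 495, 683 and 583 FPKM, against C and TR libraries with lowest 300.3, median 352, highest 426 FPKM. RPS26 was the only member with all 4 NE libraries above all 8 others, which held for 14.0% of tested genes. Its log2 difference was 0.67 (SE 0.09, adjusted p = 4.85e-05) in limma. In every group the NE value was the highest: 507, 345 and 376 FPKM in the treated and 495, 322 and 426 FPKM in the untreated miR-139 cells, 683, 329 and 385 FPKM in the treated and 583, 300.3 and 358 FPKM in the untreated scrambled cells.

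Small subunit genes around the mRNA path were among those called, and the same order of the 4 NE libraries is used for each. RPS2 had 3662, 3176, 5264 and 4404 FPKM in NE (lowest 2472, median 2948, highest 3199.9 in C and TR), a difference of 0.47 (SE 0.13, adjusted p = 0.00654) in limma. RPS3 had 3711, 3303, 4937 and 4144 FPKM in NE (lowest 2718, median 3209, highest 3529.9 in C and TR), with 0.34 (SE 0.12, adjusted p = 0.0322) in limma. In both, the untreated miR-139 NE library alone overlapped the C and TR range.

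RPS9, a neighbour of RPS2 and RPS3 at the entry channel, had 1264, 1081, 1767 and 1468 FPKM in NE (lowest 949, median 1096, highest 1202 in C and TR) and a limma difference of 0.34 (SE 0.12, adjusted p = 0.0239). For RPS28 the NE values were 417, 277, 490.3 and 412 FPKM (lowest 245, median 297, highest 395 in C and TR), with 0.37 (SE 0.13, adjusted p = 0.0271) in limma. Both had the untreated miR-139 NE library within the C and TR range and the other 3 NE libraries above it.

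RPS15 and RPS16, whose tails reach towards the tRNA sites of the decoding centre, were called as well. RPS15 had 1487, 1258, 2116 and 1706 FPKM in NE (lowest 1065, median 1176, highest 1327 in C and TR), a difference of 0.45 (SE 0.11, adjusted p = 0.00431) in limma. RPS16 had 2517, 2194, 3552 and 2908 FPKM in NE (lowest 1745, median 2074, highest 2361 in C and TR), a difference of 0.43 (SE 0.13, adjusted p = 0.0122) in limma. The treated scrambled NE library was the highest of the 12 for both, and the untreated miR-139 NE library lay within the C and TR range.

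RPS19, the gene most often mutated in Diamond-Blackfan anaemia, had 1888, 1591, 2395 and 2106 FPKM in NE (lowest 1316, median 1542, highest 1868 in C and TR) and a limma difference of 0.35 (SE 0.12, adjusted p = 0.0246). RPS29, a zinc-binding protein of the small subunit head, had 1271, 991, 1651 and 1292 FPKM in NE (lowest 764, median 976, highest 1215 in C and TR) and a difference of 0.41 (SE 0.13, adjusted p = 0.0148) in limma. RPS7 had 1679.5, 1534, 2031 and 1732 FPKM in NE (lowest 1267, median 1429.9, highest 1688 in C and TR), with 0.26 (SE 0.10, adjusted p = 0.0459) in limma. The untreated miR-139 NE library lay within the C and TR range in these 3 genes, and for RPS7 the treated one did too.

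RPS15A and RPS21 were also called. RPS15A had 1969, 1784, 2662 and 2107 FPKM in NE (lowest 1498, median 1716, highest 2007 in C and TR), a difference of 0.31 (SE 0.11, adjusted p = 0.0332) in limma. RPS21 had 2272, 1983, 2983 and 2541 FPKM in NE (lowest 1563, median 1828, highest 2152 in C and TR), a limma difference of 0.41 (SE 0.12, adjusted p = 0.0116). Both had their highest value in the treated scrambled NE library.

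Among large subunit genes, the stalk was called in part. RPLP0 had 3041, 2633, 4136 and 3436 FPKM in NE (lowest 2042, median 2522, highest 2856 in C and TR), a difference of 0.40 (SE 0.13, adjusted p = 0.0176) in limma. RPLP2 had 1030.4, 866, 1322 and 1146 FPKM in NE (lowest 769, median 882, highest 1029 in C and TR), a difference of 0.29 (SE 0.11, adjusted p = 0.0401). RPLP1, its partner in the stalk, had 1609, 1352, 2134 and 1788 FPKM in NE (lowest 1221, median 1388, highest 1683 in C and TR), and its 0.26 (SE 0.12) missed the threshold (limma adjusted p = 0.0907). The NE and other libraries overlapped in all 3 through the miR-139 cells.

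RPL10 had 3243, 2796, 4181 and 3494 FPKM in NE (lowest 2393, median 2722, highest 3045 in C and TR), a limma difference of 0.31 (SE 0.12, adjusted p = 0.0432). RPL27 had 2032, 1899, 2909 and 2381 FPKM in NE (lowest 1552, median 1774, highest 1956 in C and TR), with 0.36 (SE 0.11, adjusted p = 0.017) in limma. RPL36 had 667, 632, 979 and 801 FPKM in NE (lowest 536, median 602, highest 655 in C and TR), with 0.34 (SE 0.10, adjusted p = 0.0139) in limma. In these 3 genes the untreated miR-139 NE library alone lay within the C and TR range.

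RPL18 and RPL37A were also called. RPL18 had 1925, 1643, 2611 and 2164 FPKM in NE (lowest 1419, median 1649, highest 1825 in C and TR) and a difference of 0.33 (SE 0.12, adjusted p = 0.0312) in limma. RPL37A, a zinc-binding protein, had 1935, 1650.4, 2531 and 2073 FPKM in NE (lowest 1389, median 1632, highest 1985 in C and TR) and a difference of 0.30, just past the threshold (limma adjusted p = 0.0495). Both miR-139 NE libraries lay within its C and TR range. RPL41, the most abundant member, missed it with 0.30 (SE 0.13) and a limma adjusted p of 0.0681.

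Of the members best known for further roles, RPL5 and RPL11, which with 5S ribosomal RNA bind MDM2, had limma differences of −0.07 (SE 0.10, adjusted p = 0.582) and 0.11 (SE 0.10, adjusted p = 0.342). Neither was called. RPL5, the lowest of the 54, had 1253, 1233, 1337 and 1234 FPKM in NE (lowest 1119, median 1327, highest 1516 in C and TR), and RPL11 had 1488, 1373, 1735 and 1569 FPKM in NE (lowest 1234, median 1437, highest 1601 in C and TR). All 4 NE libraries of RPL5 lay within the C and TR range, and 3 of RPL11 did.

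RPL22, an RNA-binding protein needed for T-cell development in mice, had 385, 387, 447 and 375 FPKM in NE (lowest 348, median 396, highest 455 in C and TR) and a difference of 0.01 (SE 0.08). RPS27A, made as a fusion with ubiquitin, had 1074, 1026, 1268 and 1003 FPKM in NE (lowest 957, median 1095, highest 1372 in C and TR) and a difference of −0.03 (SE 0.10). RPL13A, which as a free protein silences inflammatory mRNAs in the GAIT complex, had 2367, 1983, 3222 and 2696 FPKM in NE (lowest 1807, median 2138, highest 2605 in C and TR) and a difference of 0.23 (SE 0.13). None of the 3 was called, and the NE values of RPL22 and RPS27A lay within the C and TR range.

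RPL38, needed in mice for translation of Hox mRNAs, had 705, 685, 1043 and 842 FPKM in NE (lowest 592, median 674, highest 789 in C and TR) and a difference of 0.26 (SE 0.11). RPS25, which some internal ribosome entry sites need, had 1375, 1299, 1709 and 1498 FPKM in NE (lowest 1066, median 1239, highest 1376 in C and TR) and a difference of 0.24 (SE 0.10). Both missed the threshold, with limma adjusted p-values of 0.0625 and 0.0586. RPS27L had 64.6, 70.8, 73.9 and 68.2 FPKM in NE (lowest 63.4, median 73.1, highest 82.8 in C and TR) and a difference of −0.07 (SE 0.08), against 0.16 (SE 0.11) for RPS27, and neither was called.

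The count of 23 rested on single libraries and on the scaling. Without the treated or without the untreated scrambled NE library, limma called the same 5 members higher (9.26%), RPS2, RPS15 and RPS26 among them, against 22.0% and 22.7% of all genes. Without the C tag it called only RPS26 (1.85%, against 20.4% of all genes). It called 14 without the treated and 13 without the untreated miR-139 C library (25.9% and 24.1%, against 27.0% and 26.9% of all genes). Without the treated scrambled C library 13 were called (24.1%, against 25.6%), without the treated scrambled TR library 11 (20.4%, against 25.4%) and without the untreated scrambled TR library 15 (27.8%, against 27.2%). In these settings the members' share was near or below that of all genes. Scaled to genes that are neither mitochondrially encoded nor ribosomal, where the median of all genes was −0.12 and not 0.02, 11 members were higher (20.4%, against 16.3% of all genes) and 6 lower (11.1%, against 3419 of the 9778 genes), namely RPL5, RPL6, RPL22, RPS24, RPS27A and RPS27L. Quantile normalization gave 19 higher (35.2%, against 25.9% of all genes) and 9 lower (16.7%, against 23.4%), the same 6 with RPL17, RPL21 and RPL23A. RPS26 was called higher under each of these settings.

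The shares above pointed to a different size of the NE difference in each line, so the tag effect was also fitted within each line, a fit chosen after those shares were seen. In miR-139 cells limma called 2 of 54 members higher, RPS26 among them (3.7%, against 19.4% of all genes), with a median of 0.06. Without the untreated miR-139 C or TR library RPS26 alone was called there. In scrambled cells 43 were higher (79.6%, against 32.2% of all genes) and 0 lower (26.5% of all genes were), with a median of 0.50. Quantile normalization gave 26 higher and 10 lower there (28.6% and 26.0% of all genes), and the scaling to genes neither mitochondrially encoded nor ribosomal gave 32 higher and 7 lower (17.8% and 41.7%). The difference between the lines was called for 27 members, all lower in miR-139 cells (10.3% of all genes were), with 53 of 54 negative and a median of −0.39. For RPS26 the NE difference was 0.46 (SE 0.07, adjusted p = 0.000649) in miR-139 cells and 0.88 (SE 0.07, adjusted p = 3.09e-06) in scrambled cells in limma. For RPS2 it was 0.21 (SE 0.10, adjusted p = 0.0997) in miR-139 cells and 0.73 (SE 0.10, adjusted p = 5.35e-05) in scrambled cells. For RPL13A it was −0.05 (SE 0.09) in miR-139 cells and 0.51 (SE 0.09) in scrambled cells, a difference of −0.56 (SE 0.13, adjusted p = 0.022) in limma. RPL5 had −0.13 (SE 0.07) and 0.00 (SE 0.07) in these lines, and their difference was not called (limma adjusted p = 0.368). The count was 0 without the untreated miR-139 NE, untreated miR-139 TR or treated scrambled NE library, where 0.0% of all genes were lower, and 0 without the untreated scrambled TR library (3.39% of all genes). It was 7 without the untreated and 12 without the treated miR-139 C library (4.97% and 5.78% of all genes), 14 without the untreated scrambled NE and 17 without the treated scrambled C library (5.57% and 4.49%). With quantile normalization it was 2, RPL13A and RPS2, against 3.26% of all genes, and with upper quartile scaling 17, against 5.38%. Scaled to genes neither mitochondrially encoded nor ribosomal, where the median of all genes was 0.11, it was 18 (33.3%), against 3.03%.

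Members with a high GC content had larger NE differences, and so had other abundant genes. GC was taken from the GENCODE 29 transcript with the longest coding sequence, for 53 of the 54 tested members. Across these, which share libraries, Spearman's correlation between GC and the NE difference was 0.54 and Pearson's r 0.48. The 18 genes of lowest GC (36.3% to 47.6%) had a median difference of 0.11, the next 18 (47.7% to 53.6%) 0.26 and the 17 of highest GC (53.8% to 63.8%) 0.34. Over 294 tested genes that are not members, those with a GC value among 339 at a mean of at least 200 FPKM (86.7%), Spearman's correlation was 0.33 and Pearson's r 0.32. Within the members Spearman's correlation was 0.37 and Pearson's r 0.18 in miR-139 cells, and 0.66 and 0.63 in scrambled cells. RPS26, at 49.0% GC, was the highest of the 53 in scrambled cells, and 1 of the 2 highest in miR-139 cells. The transcript used was long for some members, with 4916 bases for RPL27A and 3647 for RPL37A, against a median of 712. Whether it is the main transcript of each gene in these cells was not tested. With transcript length, Spearman's correlation was −0.14. Over all tested genes the check is void, since 7632 of 9778 (78.1%) could be matched, under the 80% set for it.

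**Figure D5:**
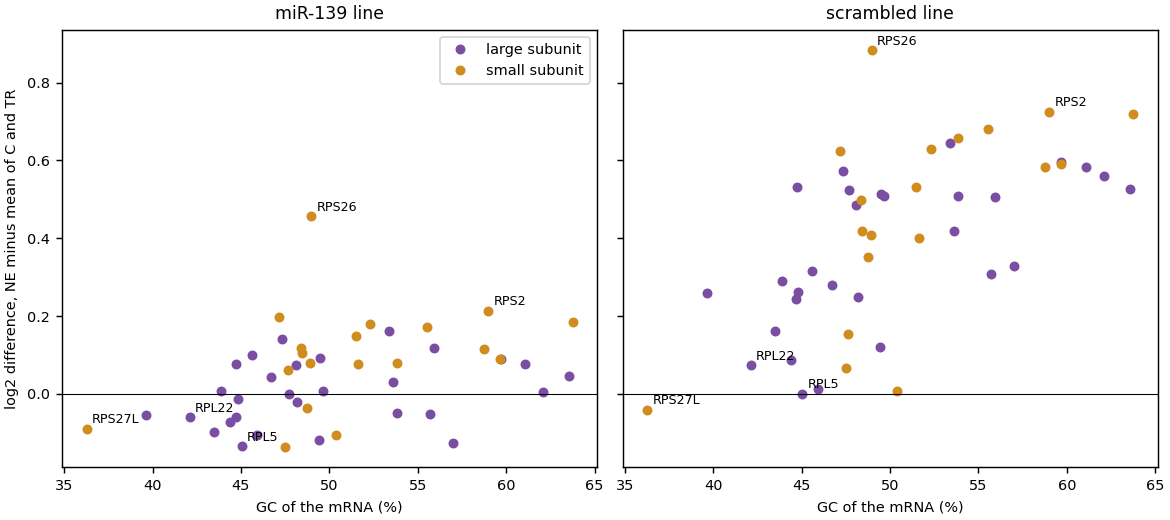
Difference of the NE library from the mean of C and TR (log2(FPKM + 1)) against the GC content of the mRNA for 48 matched members, in miR-139 cells (left) and scrambled cells (right), by subunit. Points rise with GC on the right, where 38 of 48 lie above 0.2, and stay between −0.15 and 0.25 on the left, apart from RPS26.

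Over both lines together, the C and TR libraries differed less in these genes than NE did from them. In miR-139 cells alone they differed more, with a median of −0.29 for C minus TR against 0.06 for NE. Limma called 0 of 54 members (16.6% of all genes), with 2 at an unadjusted p under 0.05 (31.8% of all genes), and 46 of 54 differences of C minus TR were negative with a median of −0.07 (50.8% of all genes were positive). RPS26 had −0.25 (SE 0.10, adjusted p = 0.106) in limma. Fitted within lines, all 54 differences were negative in miR-139 cells, with a median of −0.29 and 27 called lower in C by limma and 0 higher (10.8% of all genes were lower and 9.88% higher, 20.7% in all). RPS29, with the smallest adjusted p, had a limma difference of −0.56 (SE 0.11, adjusted p = 0.00511). RPS29 had 848 and 764 FPKM in the C libraries of that line and 1166 and 1215 FPKM in its TR libraries. For RPS27A the limma difference was −0.47 (SE 0.09, adjusted p = 0.0058). RPS27A had 1005 and 957 FPKM in the C libraries of that line and 1372 and 1343 FPKM in its TR libraries, so both genes were lower in C with and without doxycycline. In scrambled cells 52 of 54 were positive, with a median of 0.14, and RPL3 alone was called higher in C (7.42% of all genes). The difference between the lines was called for 0 members (0.0% of all genes) and had 47 at an unadjusted p under 0.05 (15.1% of all genes), with 54 of 54 negative (50.2% of all genes were positive) and a smallest limma adjusted p of 0.126. The count of 27 was 0 without the untreated miR-139 TR library (1.39% of all genes were lower), 1 without the untreated miR-139 C (3.49%), 2 without the treated miR-139 C (3.7%) and 9 without the treated miR-139 TR library (6.65%). With quantile normalization it was 3, against 11.1% of all genes. Scaled to genes neither mitochondrially encoded nor ribosomal it was 24 (44.4%, against 7.62%), and with upper quartile scaling 32 (59.3%, against 11.9%).

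Genes that work with the family were counted from lists. In the 5 comparisons between groups limma called 0 genes of each list, with or without the block. In the NE comparison, where 28.0% of all genes were higher and 24.0% lower, 32 of 58 tested ribosome biogenesis genes were higher (55.2%) and 6 lower (10.3%), with FBL, the methyltransferase of box C/D snoRNPs, at 587 to 887 FPKM in NE and 387 to 545 FPKM in C and TR (log2 0.62, SE 0.09, adjusted p = 9.81e-05). Of 15 non-ribosomal TOP mRNAs, which carry the same kind of leader as the members, 4 were higher and 4 lower (26.7% each), near the shares of all genes. Among the higher were EEF1B2, EEF1G and FAU, and lower were EIF4B, HNRNPA1, IPO7 and NACA. FAU, which encodes a ribosomal protein fused to a ubiquitin-like protein, had a log2 difference of 0.46 (SE 0.11). RPL36AL, a paralog of RPL36A outside the symbol rule, was lower at −0.24 (SE 0.07, limma adjusted p = 0.0152). Of 49 mitochondrial ribosomal protein genes, 39 were higher (79.6%) and 0 lower, with a median of 0.48. Of 13 mitochondrially encoded protein genes, 12 were lower (92.3%), with a median of −0.67. Of the 51 tested processed copies 19 were higher (37.3%) and 2 lower (3.92%), with a median of 0.25. Of the 6 tested snoRNA host genes 0 were called in NE, against 52.0% of all genes. In C against TR, where 8.16% of all genes were higher and 8.49% lower, 4 of these 6 were higher, GAS5, SNHG1, SNHG12 and SNHG16, as were 19 of the 58 ribosome biogenesis genes (32.8%, with 0 lower) and 2 of the 15 TOP mRNAs, EEF2 and IPO5. In the same comparison 1 mitochondrial ribosomal protein gene was higher and 5 lower, and of the processed copies 2 were higher and 3 lower.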

How the data were processed

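The authors deposited 1 table of FPKM values per gene symbol, with 12 library columns, and 37471 genes of it were analysed. Builds GRCh37 and hg19 stand in the submitters' processing notes beside STAR 2.5, HTSeq, Cufflinks, TopHat, Bowtie 1.0.0, TopHat2 2.0.10, FastQC 0.11.0 and SAMtools 1.3.1 and 0.1.19. The sources used here give no roles, annotation or use of strand. Columns matched a group and a tag but no single sample, so libraries are named by group and tag. The labels do not say which libraries came from separate cultures, so p-values measure the spread between libraries. FPKM holds no read counts, so absolute depth is unknown.

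Genes with a mean of at least 1 FPKM (9778) were tested on log2(FPKM + 1) with limma 3.58.1 (R 4.3.3), two-sided, with trend and Benjamini-Hochberg adjustment over all tested genes. That scale understates changes of low genes. One fit held the 4 group means, and the 2 tag contrasts used them as covariates. Shares were tested by exact permutation. The method was tested on simulated data that held no difference between tags, so that test does not cover the tag differences found here. The tag was taken to pair libraries: all 18 same-tag pairs of deviations from group means correlated (r 0.33 to 0.86), against −0.66 to 0.14 in 36 other pairs. Members named were, by rule, the 5 highest, all called, the extremes of each comparison, L paralogs, stalk proteins and 12 with known further roles. Some genes are counted but not reported by name here. The members and lists were chosen with earlier results of these data known.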

Additional observations from a re-analysis of the deposited data

Results flagged for a closer look

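RPS27L had differences of opposite sign with doxycycline in miR-139 cells (negative) and scrambled cells (positive) in all 3 tags, with an interaction of −0.14 on the log2 scale, and the limma test of that interaction did not pass. It was picked from 54 members, and the share of all tested genes with this pattern was not counted.

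The difference of the NE libraries from C and TR was smaller in miR-139 cells than in scrambled cells for 27 members by the limma test of the difference itself (adjusted p under 0.05), against 10.3% of all genes. The call rested on single libraries and on the scaling. The count was 0 without the untreated miR-139 NE, untreated miR-139 TR, treated scrambled NE or untreated scrambled TR library, and 2 with quantile normalization. Upper quartile scaling left 17 (5.38% of all genes). Scaling to genes neither mitochondrially encoded nor ribosomal left 18 (3.03% of all genes). For those named here, on the log2 scale, miR-139 cells minus scrambled cells, it was −0.55 for RPL13, −0.56 for RPL13A, −0.51 for RPL18, −0.39 for RPL19, −0.43 for RPL27, −0.41 for RPL27A, −0.46 for RPL28 and −0.51 for RPL36. It was −0.45 for RPL37A, −0.50 for RPL38, −0.49 for RPLP0, −0.52 for RPLP1 and −0.48 for RPLP2. In the small subunit it was −0.53 for RPS15, −0.51 for RPS16, −0.47 for RPS19, −0.51 for RPS2, −0.45 for RPS21 and −0.32 for RPS25. It was −0.43 for RPS26, −0.58 for RPS28, −0.43 for RPS29 and −0.50 for RPS9.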

How the results depend on the processing

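The 5 comparisons between groups called 0 members under every alternative run for them: another pseudocount, 2 other filters, 3 scalings, no variance trend, the replicate block alone and combined, and each library or tag left out. With the tag as a replicate block the count stayed 0 in each and no call changed. Each group holds each tag once, so a replicate block leaves the share differences (0.507, 0.871, −0.592 and −0.229 points) as they are by construction, which says nothing about their stability. Leaving out libraries or tags in turn moved them over 0.0127 to 0.995 points (doxycycline, miR-139 cells), −0.222 to 1.54 (doxycycline, scrambled cells), −1.03 to 0.730 (interaction), −1.39 to 0.501 (treated lines) and −1.48 to 0.443 (untreated lines), so the sign depended on a library or tag in all but the first.

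In NE 23 members were called. Without a filter 3 of 56 were, RPS10L, RPS15 and RPS26, of which 2 are among the 23 (5.36%, against 11.9% of 20148 genes higher). With upper quartile scaling 11 were, all among the 23 (20.4%, against 20.6% of all genes). Leaving out libraries or tags gave 1 to 34, with the share difference at 1.03 to 2.07 points. C minus TR gave 0 to 2 called, with the share difference at −0.979 to 0.274 points. Fitted by line, the NE counts in miR-139 cells were 7 (rescaled, 2 higher and 5 lower), 8 (quantile, 6 higher and 2 lower) and 1 to 3 (libraries left out). In scrambled cells they were 36 with quantile normalization (26 higher and 10 lower), 39 rescaled (32 higher and 7 lower), 34 with upper quartile scaling (33 higher and 1 lower) and 31 to 45 (libraries left out, all higher). For the difference between the lines they were 2 (quantile), 17 (upper quartile), 18 (rescaled) and 0 to 39 (libraries left out). That count was 12 without the treated miR-139 C and 14 without the untreated scrambled NE library. C minus TR counts in miR-139 cells were 3 (quantile), 24 (rescaled) and 32 (upper quartile), all lower. With libraries left out they were 0 to 38, and 9 without the treated miR-139 TR library. In scrambled cells they were 3 (rescaled) and 3 (upper quartile), each 2 higher and 1 lower, 2 (quantile, both higher) and 0 to 2 (libraries left out). The fits by line and their settings were chosen after the data were seen. The cause was not tested. Of single members called in NE, 0 changed sign under an alternative.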
